A study of Mus musculus with 6 samples.

Results

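*Trp53*, the mouse gene of the transcription factor p53, and 9 genes that p53 is known to regulate were followed in the dental pulp of mice with a conditional deletion of *Ror2* in the dental mesenchyme. The 10 genes, *Trp53*, *Ccng1*, *Cdkn1a*, *Mdm2*, *Bax*, *Bbc3*, *Phlda3*, *Eda2r*, *Sesn2* and *Zmat3*, were chosen by name from a count table of 27506 genes, of which 19330, these 10 among them, passed a filter on low counts and were tested. RNA-seq was carried out on mandibular first molar pulp of C57BL/6 mice at postnatal day (P) 3.5, around the onset of root formation, and asked which transcripts change when the Wnt receptor Ror2 is missing. The 3 control libraries came from Ror2fl/fl mice, which carry the same floxed allele without Cre by their genotype label, and the 3 mutant libraries from Osr2-Cre;Ror2fl/fl mice. Cre recombinase is driven here by *Osr2*, a gene of the mesenchymal lineage of tooth and jawbone, so the epithelial cells of mutant molars keep an intact *Ror2* gene.

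p53 is a transcription factor that is kept scarce by Mdm2, a ubiquitin ligase that marks it for breakdown and is itself a p53 target. After DNA damage or other stress p53 is stabilized, binds DNA as a tetramer and switches on its target genes. These include *Cdkn1a*, which halts the cell cycle, *Bax* and *Bbc3*, which promote cell death, and *Ccng1*. The level of p53 is set mainly at the protein, so the amount of *Trp53* mRNA does not by itself report p53 activity.

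The libraries held between 56134770 and 62628940 estimated counts. Expression is given as CPM, counts put on a common library total after TMM scaling, which evens out differences in composition between libraries. A mean ± SD is over the 3 libraries of a group (n = 3). The targeted gene, *Ror2* (chr13:53109312-53286124), was at 38.2, 36.2 and 36.7 CPM in controls and 27.9, 28.1 and 26.3 CPM in mutants, all exons counted together. On the log2 scale the difference was -0.43 (SE 0.08, adjusted p = 0.013 in the edgeR quasi-likelihood test, 2.1e-04 to 0.075 over the alternatives). Without control 2 or control 3 the change was -0.46 and -0.45 and no longer passed the threshold. Every mutant library was below every control library. All 10 dental mesenchyme markers were detected, but the libraries labelled dental pulp were also rich in transcripts of the dental epithelium, whose 9 markers, the enamel genes *Amelx*, *Ambn* and *Enam* among them, summed to between 171517 and 191806 CPM in controls and between 185108 and 255391 CPM in mutants. None of the 9 passed in edgeR, where 5 had an unadjusted p-value under 0.05, beside 38.3% of all genes. DESeq2 called 3, beside 28% of all genes, and limma voom, which called more genes in all than DESeq2, called 6. The 8 skeletal muscle markers, of which 7 were tested, summed to between 9.26 and 34.0 CPM in controls and between 2.20 and 2.62 CPM in mutants. In edgeR 6 of the 7 were called lower in mutants, as were 2 of 7 erythroid markers. So were 3 of 8 proliferation markers (*Mki67*, *Top2a* and *Cdk1*), beside 20.2% of all genes called in either direction. By their sign alone, 7 of 7 muscle, 7 of 7 erythroid and 7 of 8 proliferation markers were below controls. Of the markers of leukocytes edgeR called 2 of 8 higher and 1 lower, of Schwann cells 2 of 6 higher and of dental mesenchyme 1 of 10 higher and 1 lower, while none of 5 for odontoblasts or 6 for endothelium passed in edgeR, DESeq2 or limma voom or had an unadjusted p-value under 0.05. No tested marker was at 0 in all libraries. The part of these differences in the results on p53 genes was not tested. The labels of the 2 groups carry different series of identifiers, so a batch that coincides with the genotype cannot be told apart from it.

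p53 binds pairs of a short half-site of 10 bases. The windows from 250 bases before to 50 bases after the start sites were searched for exact matches to the p53 half-site consensus, which reads the same on both strands. RefSeq gave windows for 9 of the 10 genes, and 5 of these held a match. The matches are printed here because they show which of the genes carry the p53 half-site at their own start, with the half-site in capitals, 10 bases on each side, its first base counted from the start site and coordinates of the RefSeq assembly GRCm38.p6, 5′ to 3′ on the strand of the gene.
*Trp53*, half-site from -75 (chr11:69580274-69580303, plus strand): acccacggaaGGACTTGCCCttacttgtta
*Ccng1*, half-site from -185 (chr11:40755452-40755481, minus strand): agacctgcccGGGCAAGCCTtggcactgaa
*Cdkn1a*, half-site from -73 (chr17:29090896-29090925, plus strand): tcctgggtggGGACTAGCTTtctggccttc
*Cdkn1a*, half-site from -51 (chr17:29090918-29090947, plus strand): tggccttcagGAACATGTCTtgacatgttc
*Mdm2*, half-site from -186 (chr10:117710925-117710954, minus strand): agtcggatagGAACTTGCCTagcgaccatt
*Bax*, half-site from -201 (chr7:45467080-45467109, minus strand): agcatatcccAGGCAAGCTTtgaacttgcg
A half-site was found in 8.36% of the 32851 RefSeq windows, in 5 of the 12 windows of these genes and in 9 of 47 windows of other p53 targets. Both *Cdkn1a* matches lie in the same window, with at most 13 bases between them, and its other window (chr17:29093519-29093818) held none. Only exact matches are in capitals, so stretches that nearly match the consensus are left unmarked. Such a pair stood in 24 windows, 0.0731% of all. No half-site was found in the windows of *Bbc3*, *Phlda3*, *Eda2r* and *Sesn2*, which says only that these letters are not there. The genes with a match included *Ccng1*, which was lower in mutants, as well as *Trp53*, which was higher.

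*Trp53* was higher and *Ccng1* was lower in *Ror2* mutant pulp. In edgeR, 3 of the 10 passed the threshold of 0.05 after Benjamini-Hochberg adjustment over all genes, *Trp53* and *Phlda3* as higher and *Ccng1* as lower. Over all genes tested, 20.2% passed, 10.4% as higher and 9.84% as lower, and a count of 3 of 10 genes is near this background. Without adjustment 4 of the 10 genes and 38.3% of all genes had a p-value under 0.05, and DESeq2 called 4 genes and 28.0% of all. The groups did not overlap for 6 of the 10 genes, against 44.7% of all genes. The median log2 fold change was 0.19, and 0.01 over all genes. With the offset for GC content the median of the 10 genes was 0.0015, and with GC content and length together it turned to -0.05. Leaving out single libraries gave between 1 and 4 genes past the threshold, the lowest count of 1 without control 2 and without control 3. Of these fits, the same 2 also called the fewest genes in all. The target genes past the threshold did not share a direction.

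**Figure D1:**
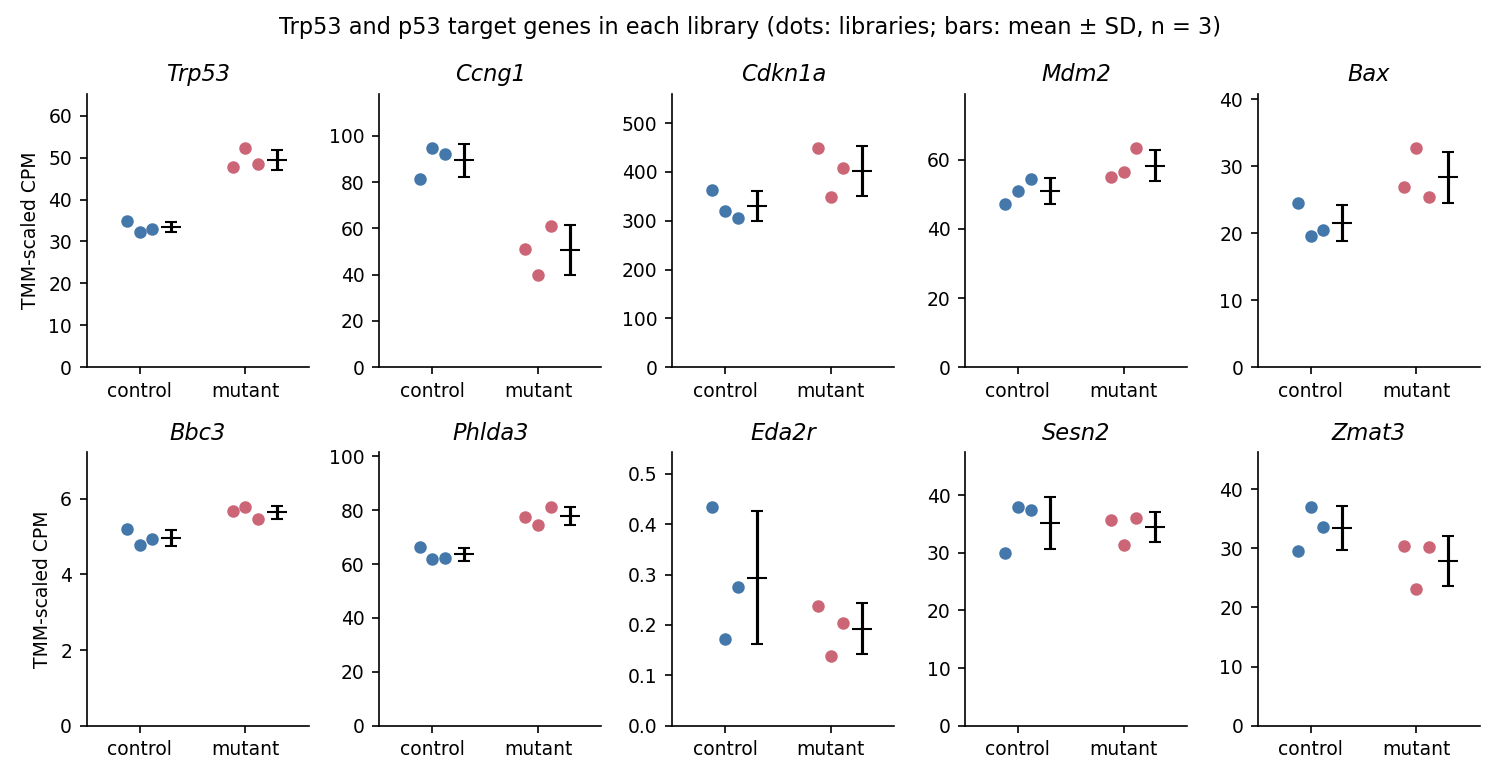
Expression of *Trp53* and the 9 target genes in each library, in TMM-scaled CPM on axes that start at 0; dots are libraries and bars the mean ± SD of the 3 control or 3 mutant libraries. All *Trp53* values in mutants lie above and all *Ccng1* values below those of controls, whereas *Cdkn1a*, *Eda2r*, *Sesn2* and *Zmat3* overlap between the groups.

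Per length, *Cdkn1a* was the most abundant of the 10 transcripts. In controls the levels in CPM per kilobase of exon were 92.8 ± 8.57 for *Cdkn1a*, 40.8 ± 1.59 for *Phlda3*, 25.5 ± 2.01 for *Ccng1* and 13.7 ± 1.69 for *Bax*. *Sesn2* at 10.1 ± 1.30 and *Mdm2* at 10.03 ± 0.718 CPM per kilobase overlapped between libraries, and *Trp53* itself followed at 8.26 ± 0.309. *Zmat3*, *Bbc3* and *Eda2r* were the lowest, at 2.92 ± 0.328, 2.34 ± 0.0997 and 0.0499 ± 0.0225 CPM per kilobase. Apart from *Sesn2* and *Mdm2*, no neighbours in this order overlapped.

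In mutants *Cdkn1a* and *Phlda3* still led, at 113 ± 14.2 and 49.95 ± 2.16 CPM per kilobase. *Ccng1*, the third in controls, stood at 14.4 ± 3.05 CPM per kilobase, behind *Bax* at 18.0 ± 2.44 and not separated from it, nor from *Trp53* at 12.3 ± 0.588. *Trp53* also overlapped with *Mdm2* at 11.5 ± 0.870. The libraries of *Bbc3* at 2.65 ± 0.0789 and *Zmat3* at 2.44 ± 0.365 overlapped as well.

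*Trp53* (ENSMUSG00000059552.13) lies on the plus strand of chromosome 11 of mm10, chr11:69580359-69591873. It was at 34.8, 32.4 and 33.1 CPM in control libraries 1 to 3 and at 47.8, 52.3 and 48.6 CPM in mutant libraries 1 to 3. All mutant libraries were above all control libraries, and within each group the libraries lay close together, with coefficients of variation of 3.74% and 4.80%. The log2 fold change was 0.57 (SE 0.09, adjusted p = 0.0054 in edgeR), or 1.48-fold with a 95% confidence interval of 1.29 to 1.70. *Trp53* was the only one of the 10 genes past the threshold in all 19 alternatives, where its log2 fold change ran from 0.45 to 0.59 and its adjusted p from 9.4e-07 to 0.048. Of its 75-base stretches, 1.09% also occur in another gene. In bulk samples, a change in the number of cells of a type and a change in RNA per cell cannot be told apart, here or in the results that follow.

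*Mdm2* (ENSMUSG00000020184.15; chr10:117688875-117710758, minus strand) encodes the main inhibitor of p53. Its level was 47.3, 51.1 and 54.6 CPM in controls and 55.1, 56.4 and 63.4 CPM in mutants. The lowest mutant library was just above the highest control library. The fitted log2 change was 0.19 (95% confidence interval -0.03 to 0.42, adjusted p = 0.18 in edgeR), so the data did not separate no change from an increase of 1.34-fold. Without mutant 3 it was 0.12. *Mdm2* passed the threshold in 1 of 19 alternatives, an offset for GC content and length together, with 0.32 (adjusted p = 0.038, against 0.038 to 0.40 over the alternatives).

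*Ccng1* (ENSMUSG00000020326.7; chr11:40748552-40755311, minus strand) encodes cyclin G1, an atypical cyclin that binds the phosphatase PP2A and takes part in the feedback between p53 and Mdm2. *Ccng1* was at 81.3, 94.6 and 92.2 CPM in controls and at 51.0, 39.7 and 61.1 CPM in mutants. The highest mutant library was below the lowest control library. Mutant 2 was the lowest of all, and the mutants varied more than the controls, with coefficients of variation of 21.2% and 7.91%. The log2 fold change was -0.82 (SE 0.16, adjusted p = 0.012 in edgeR), with a 95% confidence interval of -1.18 to -0.46, and the expression decreased by 43.4%. The study listed *Ccng1* from these same libraries, so its direction here is not independent evidence.

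The decrease of *Ccng1* kept its direction in all 19 alternatives and passed the threshold in 17. Without control 2 its log2 fold change was -0.79 (adjusted p = 0.058), and without control 3 it was -0.81 (adjusted p = 0.055), against adjusted p-values of 4.0e-05 to 0.058 over the alternatives. An offset for GC content gave the smallest change, -0.54 (adjusted p = 0.030 in edgeR), and leaving out mutant 3 the largest, -0.98. No 75-base stretch of *Ccng1* occurs in another gene, and its counts ran from 2292 to 5692 per library. Of all genes tested, 6.40% had a change at or below that of *Ccng1* and 85.2% one at or below that of *Trp53*.

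*Cdkn1a* (ENSMUSG00000023067.14; chr17:29090976-29100727, plus strand) encodes p21, the inhibitor of cyclin-dependent kinases through which p53 arrests the cell cycle. Its level was 364, 320 and 305 CPM in controls and 449, 348 and 409 CPM in mutants, so that mutant 2 lay within the range of the controls. On the log2 scale the change was 0.29 (95% confidence interval -0.02 to 0.59, adjusted p = 0.15 in edgeR). It passed the threshold in 2 alternatives, limma voom with quality weights at 0.41 (adjusted p = 0.016) and the fit without mutant 2 at 0.39 (adjusted p = 0.047), over a range of adjusted p from 0.016 to 0.51. The offset for GC content and that for GC content and length both left 0.14 (adjusted p = 0.51 and 0.50). *Cdkn1a* overlaps 273 exon bases of AC167363.2 on the opposite strand, and 7.05% of its stretches of 75 bases are shared, but with the sharing genes summed the change was likewise 0.29.

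*Phlda3* (ENSMUSG00000041801.5; chr1:135766119-135769136, plus strand) encodes a small protein that restrains the kinase Akt. It was at 66.5, 61.9 and 62.4 CPM in controls and at 77.7, 74.6 and 81.3 CPM in mutants, with no overlap. The log2 fold change was 0.29 (SE 0.09, adjusted p = 0.046 in edgeR), or 1.22-fold with a 95% confidence interval of 1.07 to 1.40. This call was near the threshold and held in 9 of 19 alternatives. It was lost without control 1, control 2, control 3, mutant 1 or mutant 3, where the log2 fold change stayed between 0.26 and 0.32. With an offset for GC content it was 0.07 (adjusted p = 0.67), and with GC content and length together it turned to -0.03 (adjusted p = 0.88, over a range of 0.012 to 0.88).

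*Zmat3* (ENSMUSG00000027663.12; chr3:32334792-32366014, minus strand) encodes a zinc finger protein that binds RNA. It was at 29.5, 37.0 and 33.6 CPM in controls and at 30.4, 23.05 and 30.1 CPM in mutants, and the groups overlapped. The fitted log2 change was -0.26 (95% confidence interval -0.58 to 0.05, adjusted p = 0.20 in edgeR), and no alternative brought it past the threshold. Without mutant 2 it was -0.13, and with the offset for GC content and length -0.06.

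**Figure D2:**
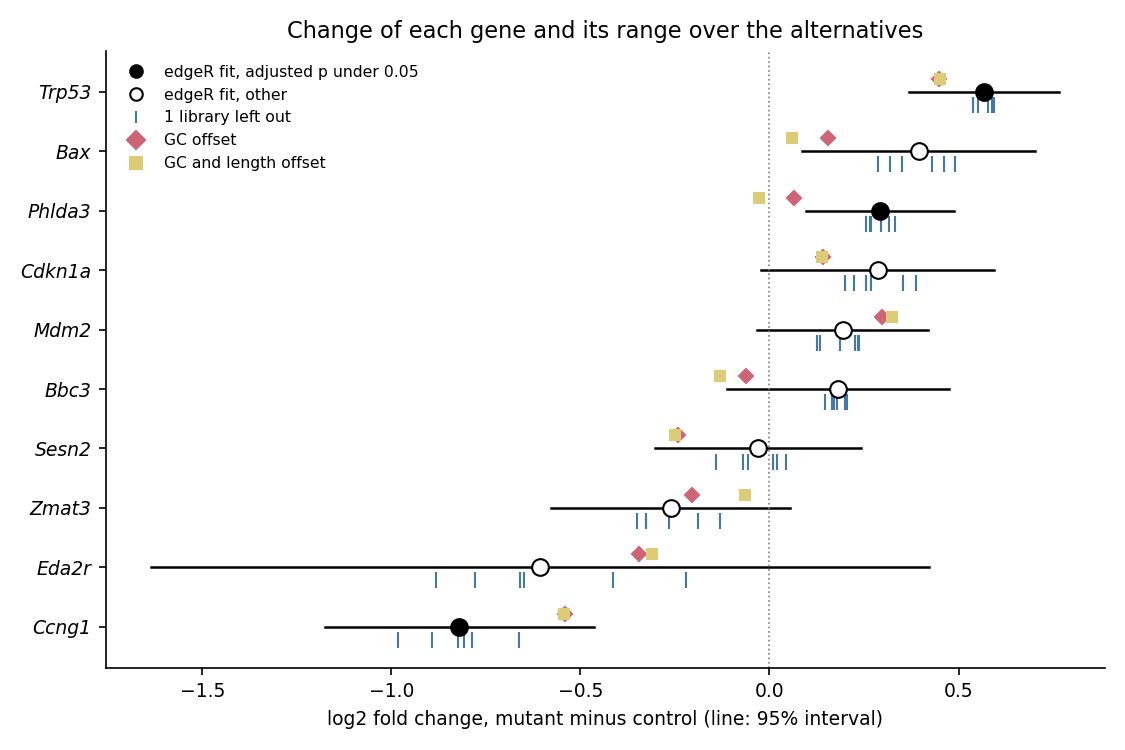
Log2 fold change of each gene, mutant minus control, with its 95% confidence interval (line), the 6 fits that each left out 1 library (ticks) and the fits with offsets for GC content (diamonds) or GC content and length (squares); filled circles passed an adjusted p-value of 0.05 in edgeR. The intervals of *Trp53*, *Phlda3* and *Bax* lie above 0 and that of *Ccng1* below it, and the offset for GC content and length puts *Phlda3* and *Bbc3* on the other side of 0.

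Of the 3 genes of cell death, none passed the threshold in edgeR, 1 had an unadjusted p-value under 0.05, and DESeq2 and limma voom each called 1, *Bax*. Over all genes, 20.2% passed in edgeR, 38.3% had an unadjusted p-value under 0.05 and DESeq2 called 28%, while limma voom called more than DESeq2. *Bax* (ENSMUSG00000003873.11; chr7:45461697-45466898, minus strand), which permeabilizes the outer mitochondrial membrane, was at 24.6, 19.5 and 20.6 CPM in controls and at 26.9, 32.7 and 25.4 CPM in mutants. All mutant libraries were above all controls, with control 1 and mutant 3 nearly touching. On the log2 scale the change was 0.39 (95% confidence interval 0.09 to 0.70, adjusted p = 0.070 in edgeR). In DESeq2 and limma voom it stood at 0.39 (adjusted p = 0.046) and 0.41 (adjusted p = 0.020), whereas the offset for GC content reduced it to 0.15 and that for GC content and length to 0.06 (adjusted p from 0.020 to 0.68 over the alternatives). *Bax* shares 192 exon bases on its strand with Gm45808 and 6.84% of its stretches with other genes. With the sharing genes summed its change was also 0.39.

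*Bbc3* (ENSMUSG00000002083.13; chr7:16308393-16318205, plus strand) encodes Puma, which frees Bax by binding the protective members of the Bcl2 family. It was scarce, at 5.202, 4.79 and 4.92 CPM in controls and 5.67, 5.79 and 5.46 CPM in mutants, without overlap. The log2 fold change was 0.18 (95% confidence interval -0.11 to 0.47, adjusted p = 0.32 in edgeR), and it turned to -0.06 and -0.13 with the offsets for GC content and for GC content and length (adjusted p from 0.24 to 0.75 over the alternatives).

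*Eda2r* (ENSMUSG00000034457.10; chrX:97333840-97377216, minus strand), a receptor of the tumor necrosis factor family that binds the A2 form of ectodysplasin, was barely expressed. It had 28, 10 and 17 counts in controls and 14, 8 and 12 in mutants, or 0.435, 0.172 and 0.275 CPM against 0.237, 0.139 and 0.203 CPM. The groups overlapped, and control 1 alone stood above the rest. The log2 fold change of -0.61 had a 95% confidence interval of -1.64 to 0.42, or 0.322-fold to 1.34-fold (adjusted p = 0.35 in edgeR). The data did not separate no change from a change within these limits. Without control 1 it was -0.22 (adjusted p = 0.77, against 0.30 to 0.77 over the alternatives).

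*Sesn2* (ENSMUSG00000028893.8; chr4:132492032-132510501, minus strand) encodes sestrin 2, which restrains mTOR complex 1. Its level was 29.95, 38.0 and 37.5 CPM in controls and 35.8, 31.4 and 36.1 CPM in mutants, fully overlapping. The fitted log2 change was -0.03 with a 95% confidence interval of -0.30 to 0.24 (adjusted p = 0.88 in edgeR). In fold terms this interval ran from 0.811 to 1.18, and without control 2, control 3 or mutant 2 the log2 fold change turned to 0.02, 0.01 and 0.04.

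With 3 libraries in each group, the smallest p-value that a two-sided exact permutation test allows is 0.1. The exact permutation test gave p = 0.1 for the 6 genes without overlap, 0.2 for *Cdkn1a*, 0.3 for *Zmat3*, 0.4 for *Eda2r* and 0.7 for *Sesn2*.

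Of 46 other p53 targets tested, genes of cell cycle arrest, death, DNA repair and metabolism, 2 were higher and 2 lower, or 8.70%, beside 20.2% of all genes, and their median log2 fold change was 0.04. The 13 targets of cell cycle arrest held 1 higher and 1 lower gene, the 12 of cell death none in edgeR, the 7 of repair 1 lower and the 14 of metabolism 1 higher. Of the 12 of cell death, 5 had an unadjusted p-value under 0.05, beside 38.3% of all genes, and DESeq2 and limma voom each called 2. DESeq2 called 8 of the 46, beside 28% of all genes. Limma voom, which called more genes in all than DESeq2, called 10. Leaving out single libraries gave 0 without control 2 or control 3, the fits with the fewest calls in all. It gave up to 11 without mutant 3, the fit with the most.

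*Trp53inp1*, a p53 target that promotes autophagy and cell death, decreased along with *Ccng1*. It was at 80.1, 99.3 and 96.6 CPM in controls and 52.1, 38.5 and 59.7 CPM in mutants, a log2 fold change of -0.88 (adjusted p = 0.012 in edgeR). As for *Ccng1*, control 1 was the lowest control and mutant 2 the lowest mutant. With the offset for GC content and length, *Trp53inp1* was at -0.48. *Rrm2b*, which supplies deoxynucleotides for DNA repair, decreased from 13.5 ± 0.578 to 8.29 ± 1.38 CPM (log2 fold change -0.71, adjusted p = 0.015 in edgeR), but was at -0.38 (adjusted p = 0.076, up to 0.11 over the alternatives) with the offset for GC content.

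*Pltp*, the phospholipid transfer protein gene, increased from 181 ± 28.2 to 290 ± 15.4 CPM (log2 fold change 0.68, adjusted p = 0.014 in edgeR). With the offset for GC content and length it was at 0.43. *Rprm*, which encodes the G2 arrest protein reprimo, was the largest change on the list at 1.35 (adjusted p = 0.025 in edgeR), but at a level of only 0.332 ± 0.0418 against 0.851 ± 0.250 CPM. Of the 4 genes, *Trp53inp1* and *Pltp* passed the threshold in 17 of 19 alternatives, *Rrm2b* in 15 of 19 and *Rprm* in 11 of 18.

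**Figure D3:**
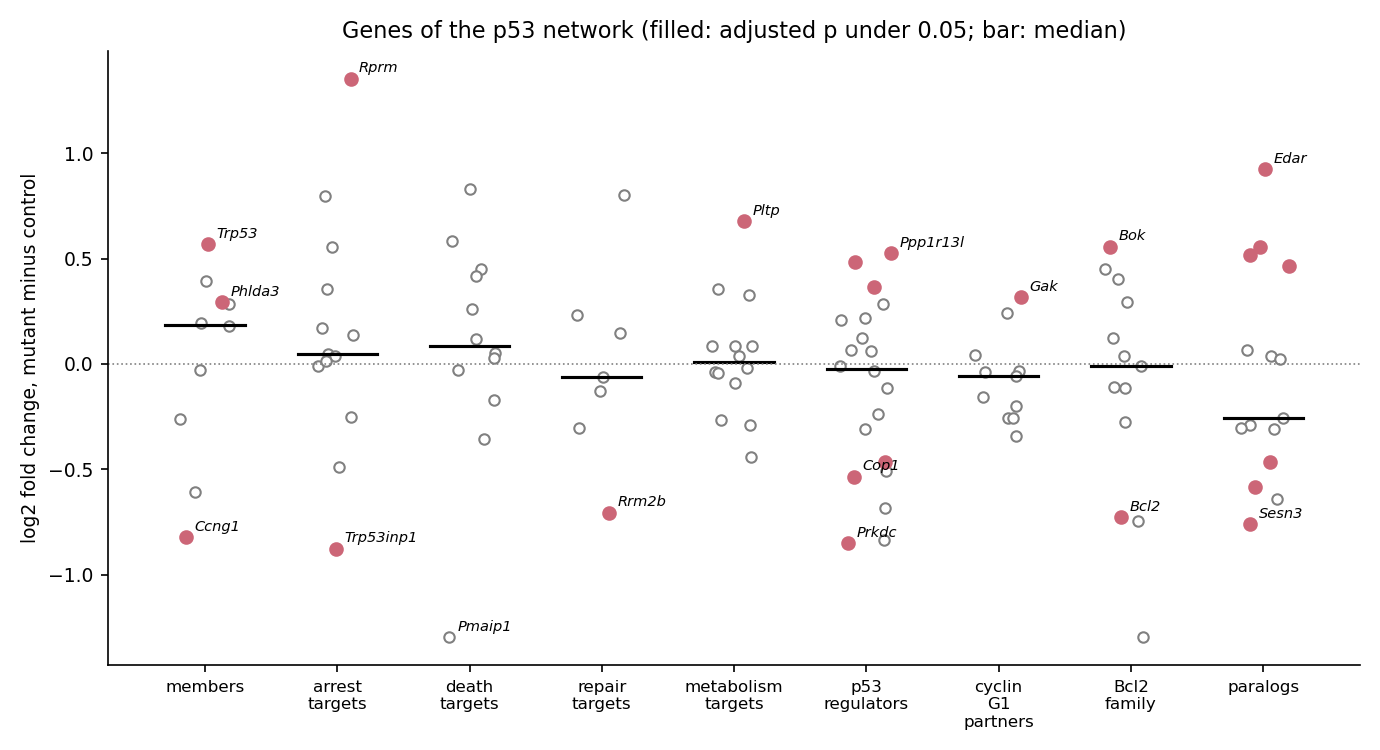
Log2 fold change, mutant minus control, of the 10 genes and of the tested genes of 8 further lists; each dot is a gene, filled where its adjusted p-value was under 0.05 in edgeR, and the bar is the median of the list. Dots lie on both sides of 0 in every list, and the medians of the 4 target lists lie between -0.06 and 0.09.

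Among the regulators of p53, 6 of the 20 tested passed, or 30% beside 20.2% of all genes, with 3 higher and 3 lower and a median log2 fold change of -0.02. Kinases that respond to DNA damage were among the lower genes, *Prkdc* at -0.85 (adjusted p = 0.012 in edgeR) and *Atr* at -0.46 (adjusted p = 0.016), together with *Cop1*, a ubiquitin ligase for p53, at -0.53 (adjusted p = 0.0096). *Ppp1r13l*, which encodes the p53 inhibitor iASPP, was higher at 0.53 (adjusted p = 0.016), as were *Kat5*, an acetyltransferase of p53, at 0.48 (adjusted p = 0.040) and *Daxx*, a partner of Mdm2, at 0.36 (adjusted p = 0.026). Only *Prkdc* kept its call with the offset for GC content, at -0.65. With GC content and length together *Cop1* and *Atr* turned to 0.10 and 0.12. Without control 2 or control 3 none of the 20 passed in edgeR. Of the fits that left out 1 library, these called the fewest genes in all. *Cdkn2a*, the gene of the Mdm2 inhibitor Arf, had at most 4 counts in a library and was not tested.

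The 11 partners and relatives of cyclin G1 held 1 call, or 9.09% beside 20.2% of all genes. *Gak*, the cyclin G associated kinase, was at 65.8, 63.3 and 66.3 CPM in controls and 87.5, 79.5 and 76.7 CPM in mutants. This was a log2 fold change of 0.32 (adjusted p = 0.041 in edgeR), which passed the threshold in 10 of 19 alternatives and was lost, among others, without control 1, control 2, control 3 or mutant 1. The PP2A subunit genes *Ppp2r5a* and *Ppp2r1a* stood at -0.26 (adjusted p = 0.090) and 0.24 (adjusted p = 0.11) and did not pass in edgeR.

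In the Bcl2 family, from which *Bax* and *Bbc3* were left out, 2 of 13 genes passed, or 15.4%, which is below the 20.2% of all genes. *Bcl2*, which protects cells from death, decreased from 37.3 ± 4.96 to 22.5 ± 2.26 CPM (log2 fold change -0.73, adjusted p = 0.0095 in edgeR), and *Bok*, a relative of *Bax*, increased from 15.02 ± 2.11 to 22.1 ± 2.86 CPM (0.56, adjusted p = 0.032). *Bcl2* passed in 17 of 19 alternatives and *Bok* in 12. *Pmaip1*, the Noxa gene, was at 0.450 ± 0.191 and 0.182 ± 0.0279 CPM (log2 fold change -1.30, adjusted p = 0.057 in edgeR).

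Genes of the same families as the 10 genes passed in 7 of 15 cases, or 46.7% beside 20.2% of all genes, 4 as higher and 3 as lower. *Trp73*, which encodes the p53 relative p73, was at 56.8 ± 5.80 CPM in controls and 81.2 ± 2.39 CPM in mutants (log2 fold change 0.52, adjusted p = 0.013 in edgeR). *Edar*, the ectodysplasin receptor of tooth and hair development and a relative of *Eda2r*, increased from 5.07 ± 0.385 to 9.65 ± 1.599 CPM (0.93, adjusted p = 0.0079). *Phlda1* and *Bok* were also higher, at 0.46 (adjusted p = 0.027) and 0.56.

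The 3 lower relatives were *Cdkn1c*, the p57 relative of *Cdkn1a*, *Sesn3*, a sestrin, and *Ccni*, a cyclin close to cyclin G1. *Cdkn1c* decreased from 152 ± 1.68 to 101 ± 10.1 CPM (log2 fold change -0.58, adjusted p = 0.0098 in edgeR), *Sesn3* from 324 ± 54.6 to 191 ± 39.9 CPM (-0.76, adjusted p = 0.028) and *Ccni* from 216 ± 4.51 to 157 ± 27.2 CPM (-0.46, adjusted p = 0.048). Of the relatives called, *Edar* passed in 18 of 19 alternatives, *Cdkn1c* in 17, *Trp73* in 16, *Sesn3* in 15, *Phlda1* in 12 and *Ccni* in 11. With the offset for GC content and length *Phlda1* was at 0.19 (adjusted p = 0.34 in edgeR). *Phlda1* shares 27.3% and *Cdkn1c* 22.1% of their stretches with other genes, and with these summed they stood at 0.54 and -0.61. Of the 15 relatives, 1 passed in edgeR without control 2 and none without control 3, the fits that left out 1 library and called the fewest genes in all. *Phlda2* was not tested.

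The genes whose profile over the 6 libraries lay nearest to that of *Ccng1* were *Mfsd14b*, *Atp11b*, *Prkdc*, *Pgm2l1* and *Galnt7*. Profiles were compared as log2 CPM around each gene's mean, and the root mean square difference from *Ccng1* was 0.034, 0.036, 0.043, 0.044 and 0.044. *Mfsd14b* was at 58.3, 71.5 and 66.6 CPM in controls and 36.3, 29.7 and 43.7 CPM in mutants, with the same order of libraries in mutants as *Ccng1*, mutant 3 the highest and mutant 2 the lowest. These genes were picked for their closeness to *Ccng1* in the same libraries, so the shared order is no separate result.

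The change between the groups moved with the GC content of the transcripts. Over all genes tested, divided into 5 bins of equal size by the GC content of the longest transcript, the median log2 fold change was -0.27, -0.12, 0.01, 0.12 and 0.21 from the lowest to the highest bin. Genes called lower made up 21.9% of the lowest bin and 2.90% of the highest, and genes called higher 3.54% and 18.3%. *Ccng1*, with 40.8% GC, stands in the lowest bin and *Trp53*, with 53.3%, in bin 4. *Bax*, *Bbc3* and *Phlda3* have between 62.6% and 65.2% and stand in the highest, together with *Sesn2* at 58.7%.

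Relative to the median of its bin, *Ccng1* was at -0.56 and *Trp53* at 0.45. *Mdm2*, whose bin had a median below 0, was at 0.31, and *Bax* was at 0.18. *Phlda3* and *Bbc3* were at 0.08 and -0.03, close to other genes of their GC content. *Sesn2*, in the same bin, was at -0.24, and *Cdkn1a* was at 0.17, *Zmat3* at -0.14 and *Eda2r* at -0.34. With the offset for GC content in the fit, *Trp53* (0.45, adjusted p = 0.011 in edgeR, against up to 0.048 over the alternatives) and *Ccng1* passed the threshold and the other 8 genes did not. The share of all genes past the threshold in that fit is not given here, so these calls have no background beside them.

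**Figure D4:**
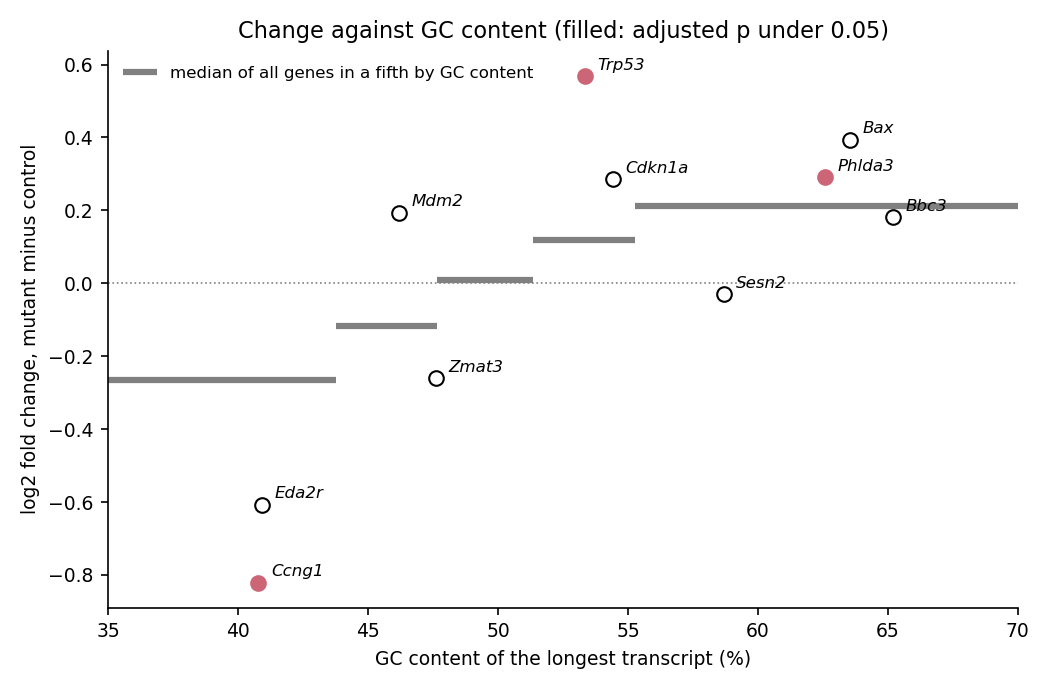
Log2 fold change, mutant minus control, of the 10 genes against the GC content of their longest transcript in percent; filled dots had an adjusted p-value under 0.05 in edgeR and grey bars are the median over all genes in each bin of GC content. *Trp53* lies far above and *Ccng1* far below the bar of its bin, while *Phlda3* and *Bbc3* lie near theirs.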

How the data were processed

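RNA-seq of 3 control and 3 Osr2-Cre;Ror2fl/fl libraries was analyzed, grouped by the genotype in their labels. The labels list separate samples and do not name animals, so p-values measure the spread between these libraries. Control 1 carries another letter code than controls 2 and 3, which is not explained. The authors deposited estimated counts per gene without normalization, of which 47.8% were whole. The methods name TopHat, mm10, single-end reads of 75 cycles and counting over exons, whereas the submitters' processing notes name STAR 2.6.1d and Partek. The annotation, the use of strand and the treatment of reads that fit several genes are not given in the sources used here. The authors also deposited a normalized signal table of 22061 genes, equal to the estimated count plus 1, times one factor per library, within 0.0016%. The 6 columns of other samples were not used.

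Estimated counts were rounded, since the design had assumed whole counts, scaled by TMM (factors 0.944 to 1.04) and kept by filterByExpr. The groups were compared with edgeR 4.0.16's quasi-likelihood test (R 4.3.3, limma 3.58.1, DESeq2 1.42.0, statmod 1.5.0) over all genes, with Benjamini-Hochberg adjustment at 0.05. The common biological coefficient of variation was 18.7%. The script was tested on simulated data. The exact permutation test was run on log2 CPM (prior count 2). No library was a copy of another: between libraries of a group the chi-square of the counts was 61.7 or more per gene. Positions and exons came from GENCODE M21 (mm10), which matched all 27506 genes, 27480 of them at the deposited positions. Stretches of 75 bases were compared between transcripts. Counts were also summed over genes sharing at least 20, where these made up a set minimum share of the stretches of the gene with fewer.

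The genes and gene lists were chosen with earlier results of these data known. Named are the 10 genes, *Ror2*, in each list the 3 genes with the smallest p-value and all those called (the other p53 targets as a single list), and the 5 genes nearest to *Ccng1*. Markers named without values were chosen after their values were seen. The alternatives were the Wald test of DESeq2, the likelihood ratio test of edgeR, limma voom (with quality weights), 2 other scalings and 2 other filters, limma-trend on the deposited normalized signal (pseudocount 1 or 0.1), a block for the replicate number, each library left out, an offset for GC content, summed counts, and an offset for GC content and length, the last chosen after seeing the data.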

Additional observations from a re-analysis of the deposited data

How the results depend on the processing

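Of 189 values of the 10 genes under 19 alternatives, 167 kept their direction and call, 11 lost the call, 5 gained one and 6 reversed. *Bbc3* turned to -0.062 with the offset for GC content and -0.13 with GC content and length together, *Phlda3* to -0.027 with the latter, and *Sesn2* to 0.021, 0.010 and 0.043 without control 2, control 3 and mutant 2, in a range from -0.14 over the libraries left out. Of 492 values of the 26 other named genes, 387 kept direction and call, 100 lost the call, 3 gained one and 2 reversed, *Cop1* to 0.10 and *Atr* to 0.12 with GC content and length together.

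Limma voom called 6341 genes in all instead of 3906, 5 of the 10 genes, 10 of the other targets and 3 of the cyclin G1 partners. DESeq2 called 5410 genes in all. Of the other targets, 8 passed in DESeq2 and 7 in edgeR's likelihood ratio test. Of the cyclin G1 partners, 0 passed in edgeR with library size alone or with no filter on low counts. With the offset for GC content 1 regulator, 0 partners, 1 gene of the Bcl2 family and 4 relatives passed in edgeR, and with GC content and length 1, 0 and 1 of the first 3 lists. The numbers of all genes called with library size alone, with no filter or with the offsets are not given here. Whether these list counts differ from the background was therefore not tested. Leaving out each library in turn gave 872 to 5001 genes in all, 1 to 4 of the 10 genes, 0 to 11 other targets, 0 to 8 regulators, 0 to 1 partners, 0 to 3 of the Bcl2 family, 0 to 7 relatives and a log2 fold change of *Ror2* from -0.46 to -0.41. Of these fits with equal numbers of libraries, those without control 3 (872) and control 2 (910) called the fewest genes in all, that without mutant 1 called 2404 and that without mutant 3 (5001) the most. The cause was not tested.

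The methods speak of 3 pairs of samples without saying which libraries belong together. Deviations from the group mean correlated at -0.10, -0.08 and -0.0038 between libraries with the same number, and no library correlated best with its own number. Such deviations, from means of 3 libraries, cannot exclude a pairing. With the number as a block, 2013 genes passed in all, with 2 of the 10 genes, 3 regulators, 0 partners, 1 of the Bcl2 family and 3 relatives, and *Ror2* stood at -0.43 without passing the threshold. Depth limits *Eda2r* most, at 8 to 28 counts per library.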
